A study of Mus musculus with 5 samples.

Results

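The genes for co-inhibitory and checkpoint receptors of T cells were followed in a map of RNA polymerase II (Pol II) over chromatin of Treg cells, the Foxp3+ CD4+ T cells that restrain other immune cells. They were 9 genes chosen by name: Pdcd1, Tigit, Lag3, Havcr2, Cd96, Cd226, Cd160, Btla and Cd200. Each was given every peak whose midpoint lay in its body or within 3 kb upstream of it in the mouse genome mm10 (GRCm38), and the counts of those peaks were summed. By this rule 8 of the 9 genes held 29 of the 56615 peaks in the table, and 12927 genes in all had a peak. Havcr2 was the 1 member without a peak. Each of the 29 peaks belonged to a single gene.

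Checkpoint receptors sit in the membrane of activated T cells and dampen signals from the antigen receptor when they meet ligands on other cells. PD-1, the product of Pdcd1, recruits phosphatases through motifs in its tail, and TIGIT competes with the activating receptor encoded by Cd226 for shared nectin-family ligands that CD96 also binds. LAG-3 binds MHC class II, BTLA and CD160 bind HVEM (Tnfrsf14), TIM-3 (Havcr2) binds galectin-9 among other ligands, and CD200 is itself a ligand, for the inhibitory receptor CD200R. Several of them, TIGIT and PD-1 among them, are known from activated Treg cells. Pol II gathers at gene starts and spreads along the gene during transcription, so its level over a gene reports on polymerase present there and not on RNA or protein.

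Pol II was mapped by CUT&Tag, in which an antibody tethers a transposase that cuts and tags nearby DNA. Control mice (Ctrl) were Foxp3 Cre-YFP Setd2 flox/+ and knockout mice (KO) Foxp3 Cre-YFP Setd2 flox/flox, so every animal expressed Cre from Foxp3, and Ctrl animals had 1 floxed allele of Setd2, which encodes the methyltransferase for lysine 36 of histone H3. All mice were C57BL/6, 8 weeks old and of both sexes pooled. All received a complex of 1 μg IL-2 with 5 μg anti-IL-2 on 3 days, which expands Treg cells, and spleens were taken 48 h later. CD3+ CD4+ YFP+ cells were sorted, and 80000 nuclei went into each of the 4 libraries compared, 2 per genotype. The 1 IgG library of the series was not analysed here. The study calls each library a biological replicate and describes pooling cells of 2 mice. Whether the libraries of 1 genotype came from separate mice is not clear, so that p-values may measure technical spread only.

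Total counts ran from 4489646 to 13351007 per library, with the libraries numbered 1 the deeper in both genotypes. The targeted gene Setd2 had 9 peaks, summing to 512 and 518 normalized counts in Ctrl against 455 and 569 in KO, which overlap. Which exons are floxed is not given in the sources used here, so these sums do not check the deletion. All 6 T cell and all 6 Treg markers, Foxp3 and Il2ra among them, had a peak in each case, and Treg markers summed to 570 to 691 normalized counts per kb over the libraries. None of 6 CD8 T and NK cell markers had a peak. Among B cell markers, Cd79a, Cd79b and Blk had a peak, with a summed level of 21.3 to 31.4 per kb, while Ms4a1 and Pax5 had none. Of 6 myeloid markers only Fcgr3 (4.76 per kb) and Cd68 (591 per kb) had one, the latter shared with another gene. Klf1 was the only one of 4 erythroid markers with a peak. It had 2 peaks, neither shared, and a mean of 60.9 per kb, where Foxp3 had 81.5.

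The promoters that carry the main contrast among the receptors are shown first. They are RefSeq windows of GRCm38.p6, from 250 bases before to 50 bases after the start, on the strand of the gene and 5′ to 3′. Those of Pdcd1, Tigit and Btla each lay wholly inside a Pol II peak, whereas that of Havcr2 overlapped none. Capitals mark matches on either strand to a GC box (GGGCGG), a RUNX motif (TGTGGT, or ACCACA on the other strand) or an AP-1 motif (TGANTCA).
Pdcd1, chr1:94052504-94052803, minus strand: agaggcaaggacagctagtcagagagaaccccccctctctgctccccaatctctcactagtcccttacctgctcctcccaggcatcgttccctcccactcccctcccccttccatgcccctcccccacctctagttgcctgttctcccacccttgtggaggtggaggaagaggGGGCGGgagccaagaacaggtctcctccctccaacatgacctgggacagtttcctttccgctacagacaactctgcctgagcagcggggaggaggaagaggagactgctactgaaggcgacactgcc
Tigit, chr16:43664135-43664434, minus strand: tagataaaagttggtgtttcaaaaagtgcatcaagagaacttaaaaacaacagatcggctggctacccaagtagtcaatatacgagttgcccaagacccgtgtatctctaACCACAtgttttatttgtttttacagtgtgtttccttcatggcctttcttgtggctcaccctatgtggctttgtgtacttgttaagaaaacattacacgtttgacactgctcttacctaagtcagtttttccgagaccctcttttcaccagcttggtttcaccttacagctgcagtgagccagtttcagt
Btla, chr16:45224087-45224386, plus strand: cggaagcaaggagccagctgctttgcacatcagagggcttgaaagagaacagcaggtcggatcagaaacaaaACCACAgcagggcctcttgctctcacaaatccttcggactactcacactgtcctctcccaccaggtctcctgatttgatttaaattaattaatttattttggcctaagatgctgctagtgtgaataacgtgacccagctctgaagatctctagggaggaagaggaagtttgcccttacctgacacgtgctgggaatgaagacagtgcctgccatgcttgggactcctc
Havcr2, chr11:46454681-46454980, plus strand: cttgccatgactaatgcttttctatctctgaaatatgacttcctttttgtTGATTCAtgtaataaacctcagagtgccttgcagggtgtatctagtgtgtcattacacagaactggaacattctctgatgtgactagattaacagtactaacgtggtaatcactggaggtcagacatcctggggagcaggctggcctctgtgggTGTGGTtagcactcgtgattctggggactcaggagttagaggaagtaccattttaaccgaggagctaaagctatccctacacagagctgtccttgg

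The 3 promoters inside a peak held 5 CpG dinucleotides each and that of Havcr2 held 3, below the median of 7 over all 32851 mouse promoters of this length. The Pdcd1 window held 1 GC box and no RUNX match, the Tigit and Btla windows held 1 RUNX match each and no GC box, and the Havcr2 window held 1 AP-1 and 1 RUNX match. A TATA box (TATAAA) was in none of the 4. Over all promoters, a GC box was found in 35.7%, a RUNX match in 16.8%, a TATA box in 13.6% and an AP-1 match in 7.81%. The table matched 7 of the 9 members, and Lag3 and Cd226 were not among them. Of the promoters of Cd96, Cd160 and Cd200, none of which lay inside a peak, that of Cd96 had a TATA box, that of Cd200 and 1 of the 2 of Cd160 had a GC box, and those of Cd96 and Cd160 had RUNX matches. They held 4 CpG for Cd96, 6 for each of Cd160 and 8 for Cd200. The CpG count thus did not separate promoters inside a peak from those outside.

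Levels of Pol II per length of gene differed widely among the receptors, and the order was nearly the same in every library. Levels are compared here as normalized counts per kb of gene, averaged over the 4 libraries. Tigit led with 167 per kb, at percentile 94.6 of the protein-coding genes with a peak, and peaks covered 74.1% of the gene. Pdcd1 followed with 76.5 per kb, at percentile 84.8.

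Lag3 stood at 44.3 and Btla at 14.4 per kb, the latter close to the median gene at percentile 49.8. The other 4 were low: Cd200 at 2.83, Cd160 at 1.84, Cd226 at 1.65 and Cd96 at 0.322 per kb, the last at percentile 1.47. The ranges over libraries of neighbours in this order did not overlap, except those of Cd160 and Cd226, which were in this order in 2 of 4 libraries. Counts outside called peaks were not in the table, so a long gene with few peaks gets a low value. Per kb of peak in place of gene the spread was far narrower, from 66.4 for Cd96 and 68.9 for Cd160 to 162 for Pdcd1 and 201 for Tigit. On that scale Btla (121), Lag3 (118), Cd200 (113) and Cd226 (108) stood close together, with Btla ahead of Lag3.

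**Figure D1:**
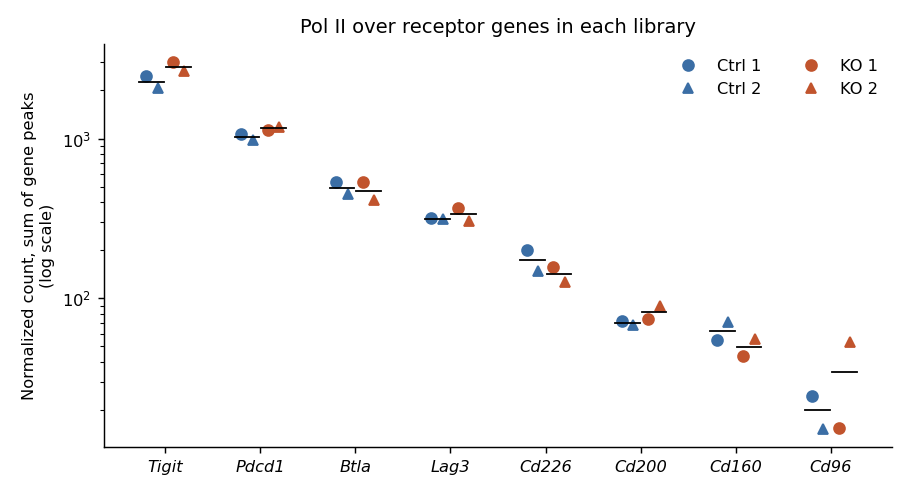
Normalized counts (log scale) summed over the peaks of each receptor gene, with 1 point per library (circles, number 1; triangles, number 2) and black bars at the group means. Both KO points lie above both Ctrl points for Tigit, Pdcd1 and Cd200, and the groups overlap for the other 5 genes.

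For Havcr2 no level can be given. Its body (chr11:46454935-46481255, plus strand) and the 3 kb before it held no peak, the nearest peak midpoint lay 6.453 kb upstream, and the next one downstream was 98.5 kb away. The upstream peak had 48.2 and 33.1 normalized counts in Ctrl and 42.8 and 17.0 in KO. A gene without a called peak is not a gene without Pol II, so Havcr2 is not placed in the order of levels.

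With genotype as the only term, no receptor gene passed the test of genotype at an adjusted p under 0.05. Counts were compared with the DESeq2 Wald test over all genes with Benjamini-Hochberg adjustment, which called 0.101% of genes, and the adjusted p was 1.00 for each of the 8 members. Without adjustment, 1 member of 8, Tigit, had p under 0.05, against 2.89% of all genes. With the edgeR quasi-likelihood test it was again Tigit alone, against 4.88% of all genes, with adjusted p from 0.902 to 0.988 over the members. In 3 of 8 members both KO libraries were above both Ctrl libraries, as in 17.5% of all genes, and in none were both below, as in 16.9%. The median log2 fold change, given throughout as KO over Ctrl, was 0.14 over the 8 members and -0.00 over all genes. In sorted cells taken in bulk, fewer cells carrying Pol II on a gene and less Pol II per cell cannot be told apart.

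Tigit (ENSMUSG00000071552.5, chr16:43648867-43664146, minus strand) encodes an inhibitory receptor for poliovirus receptor and nectin-2. Its 8 peaks summed to 2473 and 2079 normalized counts in Ctrl and to 3001 and 2645 in KO. Both KO libraries were higher than both Ctrl libraries, with KO 2 next to Ctrl 1. The log2 fold change was 0.31 ± 0.14 (SE, n = 2 per group, 95% interval 0.04 to 0.59), with adjusted p = 1.00 by DESeq2 and adjusted p = 0.902 by edgeR. Leaving out 1 library at a time gave 0.19 to 0.45 on the log2 scale, and the unadjusted DESeq2 p was no longer under 0.05 without Ctrl 2 or without KO 1.

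Pdcd1 (ENSMUSG00000026285.7, chr1:94038305-94052553, minus strand) encodes PD-1. Its 6 peaks summed to 1072 and 973 normalized counts in Ctrl and to 1134 and 1179 in KO, so the groups did not overlap. The log2 fold change was 0.17 ± 0.15 (95% interval -0.11 to 0.46), an interval that includes 0.

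Lag3 (ENSMUSG00000030124.2, chr6:124904361-124911705, minus strand), which encodes a receptor for MHC class II related to CD4, held 5 peaks. They summed to 317 and 313 normalized counts in Ctrl, values that lay between the 365 and 306 of KO. The log2 fold change of 0.10 ± 0.21 (95% interval -0.31 to 0.51) had an interval on both sides of 0, and without KO 1 it was -0.04.

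Btla (ENSMUSG00000052013.15, chr16:45224315-45257670, plus strand) and Cd160 (ENSMUSG00000038304.14, chr3:96798763-96829351, minus strand) encode receptors that share the ligand HVEM. Btla had 533 and 447 normalized counts in Ctrl and 531 and 410 in KO over 3 peaks, and the difference between libraries of 1 genotype was larger than that between genotypes (-0.05 ± 0.20 on the log2 scale, 95% interval -0.44 to 0.34). Its sign turned without Ctrl 1 (0.09) and without KO 2 (0.11). Cd160 had 1 peak, with 54.7 and 71.0 in Ctrl and 43.7 and 55.4 in KO. The highest KO value was just over the lowest Ctrl value, and the log2 fold change was -0.35 ± 0.44 (95% interval -1.22 to 0.52). The Cd160 peak lay in an intron of the longest transcript, 15364 bp from its start and 534 bp from another annotated start.

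Cd226 and Cd96 encode 2 other receptors for ligands of TIGIT, the former activating. Cd226 (ENSMUSG00000034028.16, chr18:89176967-89272229, plus strand) had 199 and 148 normalized counts in Ctrl and 156 and 126 in KO over 4 peaks, and KO 1 lay between the Ctrl libraries. The log2 fold change was -0.29 ± 0.29 (95% interval -0.86 to 0.28). None of the 4 Cd226 peaks covered the start of the coding transcript, and their midpoints were 8823 to 41416 bp downstream of it, all in introns. Peak 1 of Cd226, the densest per kb of peak in every library, nevertheless lay within 1 kb of another annotated start. Peak 2 of Cd226 lay within 3 kb of such a start. Cd96 (ENSMUSG00000022657.9, chr16:46035657-46120251, minus strand) rested on 1 peak in its exon 2, with raw counts of only 35 and 11 in Ctrl and 26 and 31 in KO. After normalization the Ctrl values were 24.6 and 15.3 and the KO values 15.4 and 53.7, so that KO 2 alone stood high. Its log2 fold change of 0.71 ± 0.71 (95% interval -0.69 to 2.11) became -0.39 without KO 2, and at this depth a change in Cd96 was not detectable.

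Cd200 (ENSMUSG00000022661.14, chr16:45382135-45409053, minus strand) had 1 intron peak with 72.3 and 68.2 normalized counts in Ctrl and 73.8 and 90.0 in KO. The groups did not overlap but KO 1 was next to Ctrl 1, and the log2 fold change was 0.20 ± 0.38 (95% interval -0.54 to 0.95). Cd200, Tigit, Btla and Cd96 all lie on chromosome 16, within 2.471 Mb.

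**Figure D2:**
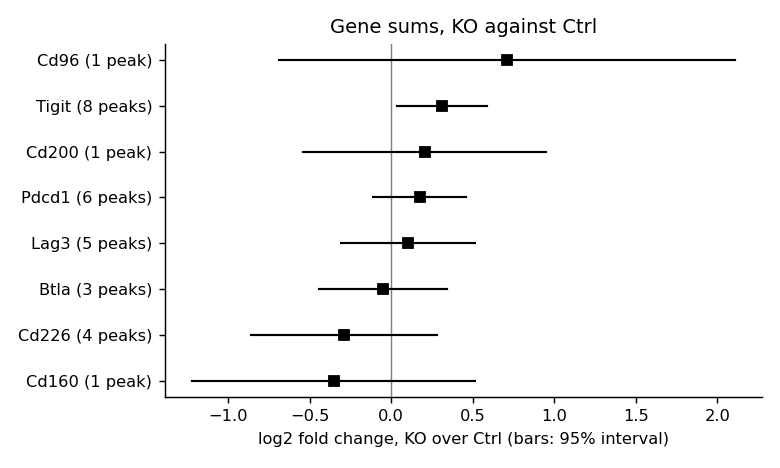
Log2 fold change of the summed counts, KO over Ctrl (x axis), for the 8 receptor genes with a peak, with 95% intervals of the DESeq2 fit (bars) and the number of peaks behind each gene. The Tigit interval, 0.04 to 0.59, lies above 0 before adjustment, and those of the other 7 genes include 0.

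Because TIGIT and CD226 compete for ligands, their genes were also compared within each library, a comparison chosen after their values were seen. The log2 ratio of Tigit to Cd226 in normalized counts per kb was 6.27 and 6.46 in Ctrl and 6.90 and 7.03 in KO. The ratio was higher in both KO libraries, by 0.60 on average, with an exact permutation p of 0.33, the smallest that 2 against 2 libraries allow. This difference restates the fold changes of the 2 genes, 0.31 and -0.29, and is not separate evidence. The level of the ratio also carries gene length, 15280 bp for Tigit and 95263 bp for Cd226. Per kb of peak the 2 genes stood at 201 and 108.

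Peak by peak, 16 of the 29 member peaks were higher and 13 lower in KO. DESeq2 over all peaks adjusted none of the 29 below 0.05, and 1 of them had an unadjusted p under 0.05, against 1.53% of all peaks. With edgeR it was 4 of 29, namely Pdcd1 peak 5 and Tigit peaks 3, 4 and 6, against 3.63% of all peaks. In 9 member peaks (31.0%) both KO libraries were above both Ctrl libraries, against 16.2% of all peaks, and in 3 both were below, against 16.1%. Peaks of a gene share its cells and libraries and are not independent. By their midpoints, 20 of the 29 lay in introns, 5 upstream, 3 in exons and 1 downstream of the longest principal transcript. The start of that transcript was covered by 4 peaks, those of Pdcd1, Tigit, Lag3 and Btla. Peak counts were normalized with the size factors of the peak table, which differ slightly from those of the gene table. With these the Cd160 peak was lower in both KO libraries.

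Over Tigit, Pol II was densest at the start and less dense in every later peak, in each library. The peak over the start (peak 2, midpoint 181 bp upstream) held 618 and 499 normalized counts in Ctrl and 661 and 608 in KO, and the groups overlapped. The longest peak, of 4098 bp (peak 3, midpoint in intron 2, 3171 bp downstream), held 942 and 733 in Ctrl and 1115 and 1024 in KO.

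That peak was higher in both KO libraries, its log2 fold change was 0.35 ± 0.20 (SE), and its unadjusted p was under 0.05 by edgeR and not by DESeq2. Peaks 4, 5 and 7, farther into the gene, also had both KO libraries above both Ctrl libraries, with log2 fold changes of 0.47, 0.27 and 0.11. Peak 6 had the largest value, 0.65 ± 0.40. Ctrl 2 stood low there, at 62.0, with 145 in the other Ctrl library and 198 and 128 in KO, and the groups overlapped. The last peak, in exon 4, was -0.34 ± 0.56. In all, 7 of 8 Tigit peaks were higher in KO and none passed adjustment.

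**Figure D3:**
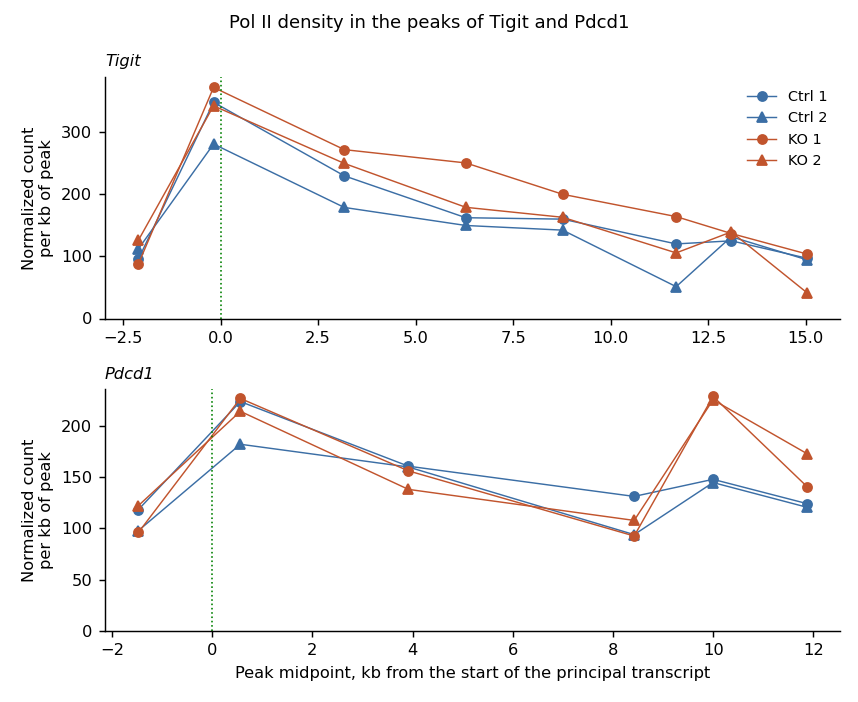
Normalized counts per kb of peak (y axis, from 0) at each peak midpoint of Tigit and Pdcd1, by distance in kb from the start of the principal transcript (dotted line), with 1 line per library. Tigit density is highest at the start in every library, and Pdcd1 shows a separate rise in KO at 9997 bp, where both KO libraries are above both Ctrl libraries.

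Pdcd1 had its densest peak in Ctrl at the start as well (peak 2, 457 and 372 normalized counts in Ctrl, 463 and 438 in KO), with a log2 fold change of 0.12 ± 0.22. The only member peak with an unadjusted DESeq2 p under 0.05 was peak 5 of Pdcd1 (chr1:94042099-94043012), in the first intron, 9997 bp downstream of the start. It held 135 and 132 normalized counts in Ctrl and 209 and 206 in KO.

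The libraries of each genotype were almost equal at this peak and the genotypes were apart, and the log2 fold change was 0.63 ± 0.28 (SE), with adjusted p = 1.00 by both DESeq2 and edgeR. Leaving out 1 library at a time gave 0.62 to 0.66, and the unadjusted DESeq2 p was over 0.05 in each of these 4 fits. Per kb of peak, Pol II at peak 5 was 148 and 145 in Ctrl, under the 224 and 182 at the start, whereas in KO it was 229 and 225, next to 227 and 214 at the start. The neighbouring peak 6, toward the gene end, had 106 and 103 in Ctrl and 121 and 148 in KO (0.34 ± 0.32). Peak 4 on the other side was -0.20 ± 0.49, and peak 3 was lower in both KO libraries, at -0.12 ± 0.28.

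The 300 bases at the centre of that Pdcd1 intron peak, chosen for that unadjusted p, are given on the gene strand from the RefSeq genome GRCm38.p6. They held 7 CpG and no match to the 4 motifs searched, which occur in 24.4% (RUNX), 15.0% (GC box), 9.46% (TATA box) and 8.80% (AP-1) of the central windows of all peaks.
Pdcd1 peak 5, chr1:94042406-94042705, minus strand: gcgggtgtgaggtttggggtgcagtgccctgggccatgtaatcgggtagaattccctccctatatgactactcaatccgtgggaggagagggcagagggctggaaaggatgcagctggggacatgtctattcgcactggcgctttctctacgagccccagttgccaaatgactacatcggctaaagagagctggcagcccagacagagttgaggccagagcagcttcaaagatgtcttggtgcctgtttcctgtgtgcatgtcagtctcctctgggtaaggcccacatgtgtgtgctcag

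In Lag3 the log2 fold changes of the 5 peaks ran from -0.20 to 0.39, with the 2 outermost peaks at these ends. The most upstream peak, 1668 bp before the start, had 33.8 and 40.0 normalized counts in Ctrl and 42.8 and 54.5 in KO (0.39 ± 0.49). Its groups did not overlap, and neither did those of peak 4, at 0.15 ± 0.39. All 3 Btla peaks were within -0.16 to -0.02, including the 1 over the start, which had 290 and 242 in Ctrl and 304 and 220 in KO. The Cd226 peaks ran from -0.83 to 0.02. Peak 3 of Cd226 was lower in both KO libraries, at 24.95 and 15.3 against 33.1 and 41.3 in Ctrl (-0.83 ± 0.60).

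**Figure D4:**
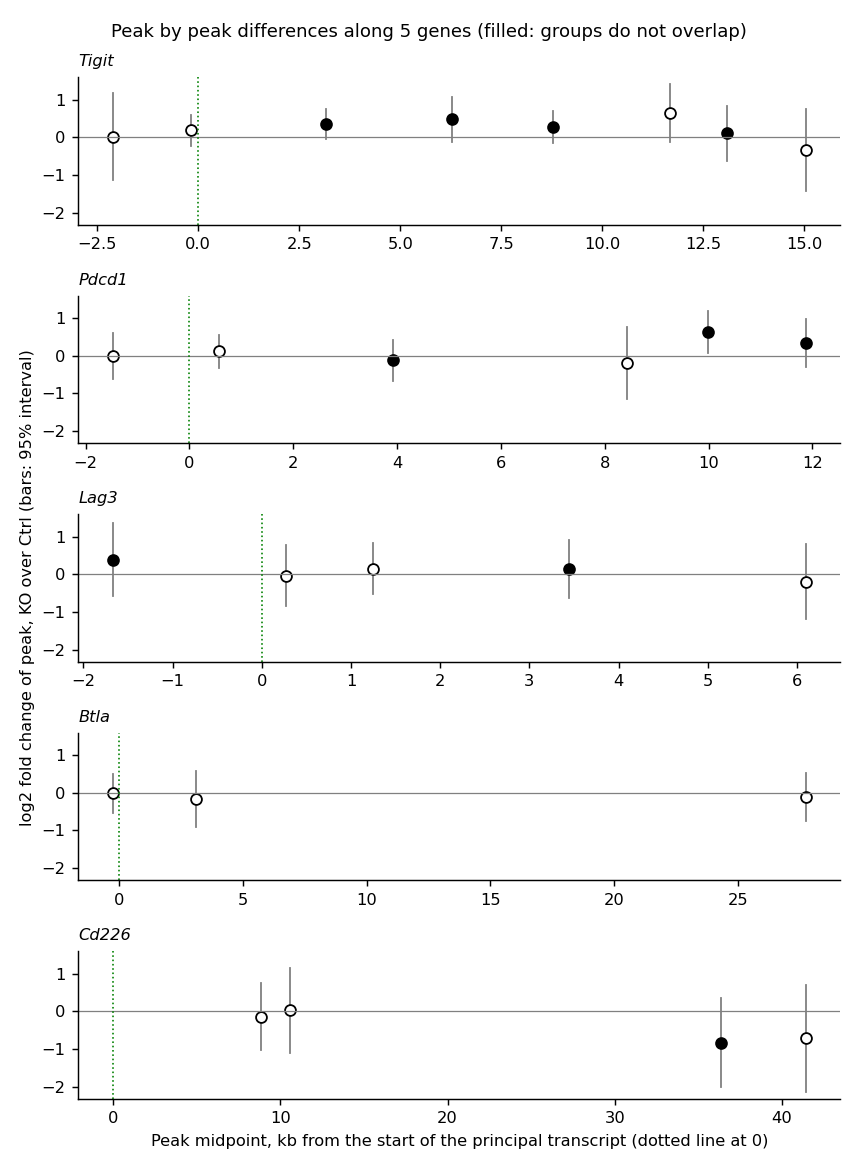
Log2 fold change of each peak, KO over Ctrl, with its 95% interval, by distance of the peak midpoint from the start of the principal transcript in kb, for the 5 receptor genes with more than 1 peak. Filled points mark peaks whose genotype groups do not overlap: 4 of 8 in Tigit, 3 of 6 in Pdcd1, 2 of 5 in Lag3, none of 3 in Btla and 1 of 4 in Cd226.

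The promoter share of a gene is the part of its counts that lay in peaks within 3 kb of any of its annotated starts. It is built from the same peak counts as the sums and fold changes above and is given as a description of where they lay, not as separate evidence. For Tigit this share was 25.4% and 25.7% in Ctrl and 22.7% and 24.7% in KO. For Pdcd1 it was 55.9% and 52.1% in Ctrl and 51.7% and 51.7% in KO. Both were lower in KO, with differences of -1.91 and -2.28 percentage points and no overlap of the groups. The promoter share was computed for members only, so how often it separates the genotypes over all genes is not known. With starts taken within 1 kb the Tigit difference was -1.71, while that of Pdcd1 was -0.97 points with overlapping groups. Without Ctrl 1 the Pdcd1 difference was -0.36 points, and without KO 1 the Tigit difference was -0.90.

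For Cd226 the share was 66.2% and 58.5% in Ctrl and 69.1% and 80.8% in KO, which counts starts other than that of the principal transcript. Its difference of 12.6 points was 5.63 points with overlapping groups within 1 kb (exact permutation p = 0.67), and 6.71 to 18.5 points when 1 library was left out. Over the 5 genes with both kinds of peak, the joint share stood at 44.7% and 44.1% in Ctrl against 40.6% and 42.6% in KO, with a difference of -2.84 points. The exact permutation test, two-sided, gave p = 0.33 for the 4 differences within 3 kb given so far, the smallest it can give here. For Lag3 and Btla the differences were 3.89 and 1.78 points with overlapping groups (exact permutation p = 0.67). Tigit and Pdcd1 held most of the counts, so the joint share mainly describes those genes, and it moves with the weight of Tigit, whose own share is low.

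The ligands and partners of the receptors, other inhibitory receptors, their signalling partners and the transcription factors known to control them were read from the same fit. None of the genes in these 4 lists passed adjustment. Among 13 ligands and partners, 9 had a peak, with a median log2 fold change of -0.03 and none with p under 0.05 in either direction. The values ran from -1.08 ± 0.77 for Nectin2, a ligand of TIGIT with 17.5 and 33.4 normalized counts in Ctrl and 12.99 and 10.4 in KO, to 0.24 ± 0.23 for Lgals9, which encodes galectin-9.

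Of 9 other inhibitory receptors 7 had a peak, with a median of 0.15 and none with DESeq2 p under 0.05. That median was the value of Vsir, whose 11 peaks are all shared with Cdh23. In 4 of the 7 genes both KO libraries were above both Ctrl libraries and in 1 both were below, against 17.5% and 16.9% of all genes. These 4 included Vsir, Lilrb4a and Cd244a, the last with 1 of 3 peaks shared with Ly9. The other was Ctla4, named after its values were seen, with 11 peaks and none shared. It had 6859 and 5725 normalized counts in Ctrl and 7502 and 7032 in KO (0.21 ± 0.13). By edgeR 1 of the 7, Lilrb4a, had an unadjusted p under 0.05, against 4.88% of all genes. The highest was Lilrb4a (0.38 ± 0.20), whose 3 peaks are all shared with Gm49339, and the lowest Cd101 (-0.05 ± 0.14). All 13 genes for signalling partners had a peak, with a median of 0.04 and a range from -0.17 ± 0.26 for Ptpn11, the phosphatase that binds PD-1, to 0.28 ± 0.25 for Sh2d1a, an adaptor of SLAM-family receptors.

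Of 19 transcriptional regulators 18 had a peak, with a median of 0.00. Of these 18, 2 had an unadjusted DESeq2 p under 0.05, in opposite directions, against 2.89% of all genes. Tox2, an HMG-box factor of the TOX family, had 919 and 954 normalized counts in Ctrl and 1101 and 1464 in KO. Its log2 fold change was 0.45 ± 0.17 (DESeq2 adjusted p = 1.00). With 1 library left out it was 0.24 to 0.65, lowest without KO 2. Nr4a3, a nuclear receptor gene induced by antigen receptor signals, had 7727 and 7289 in Ctrl and 6598 and 5928 in KO (-0.26 ± 0.12, DESeq2 adjusted p = 1.00). With 1 library left out the Nr4a3 value was -0.34 to -0.19. By edgeR 4 of the 18 regulators had an unadjusted p under 0.05, against 4.88% of all genes. They were Tox2 and Nr4a3 with Nfatc1 (0.15) and Nr4a1 (-0.21), and the last 2 were named after their values were seen. The groups of Tox2 and of Nr4a3 did not overlap. In 4 of the 18 both KO libraries were above both Ctrl libraries and in 2 both were below, against 17.5% and 16.9% of all genes. Over all genes 187 were higher and 186 lower in KO at an unadjusted DESeq2 p under 0.05.

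**Figure D5:**
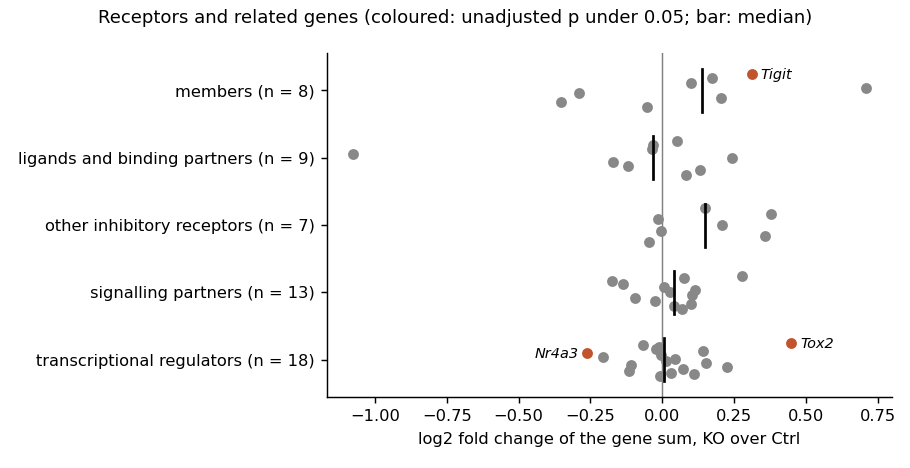
Log2 fold change of the summed counts, KO over Ctrl (x axis), for the receptor genes (members) and 4 lists of related genes, with 1 point per gene with a peak and a black bar at each list's median. Coloured points have an unadjusted DESeq2 p under 0.05 (Tigit, Tox2 and Nr4a3), and the medians run from -0.03 to 0.15.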

How the data were processed

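The authors trimmed paired-end reads of 150 bp, mapped them to mm10 with Bowtie2, removed duplicates, called peaks with MACS2 against IgG (p 0.01) and merged them with bedtools. The deposited values are raw counts per merged peak, with no normalization and no background subtracted. Versions are not given in the sources used here. Peaks were called on the libraries compared.

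Peaks were assigned with GENCODE vM21. Summed counts were fitted over all 12927 genes, and peak counts over all 56615 peaks, with the DESeq2 1.42.0 Wald test in R 4.3.3, the tool of the study, with genotype as the only term, size factors (0.578 to 1.69 for genes) and Benjamini-Hochberg adjustment. The fit was tested on counts simulated with a capped spread and with changes larger than that of any member. That test does not show how well changes of the members' size are found. Alternatives were edgeR 4.0.16 quasi-likelihood, total-count and TMM scaling, a mean of at least 10 counts, a replicate block, leaving out each library, 1 kb upstream, peaks of 1 gene only and promoter peaks only. A peak shared by overlapping genes counts for each, since CUT&Tag has no strand. Intervals are 95% Wald intervals. The members, gene lists, markers and tests were chosen with earlier results of these data known. Named genes were all members and, per list, the genes with an unadjusted p under 0.05 and the lowest and highest fold change. Vsir and Cd244a were named for their shared peaks, and Ctla4 to complete the receptors with both KO libraries above both Ctrl libraries. Motifs were searched on both strands. 1 cell type marker is not reported here.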

Additional observations from a re-analysis of the deposited data

How the results depend on the processing

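The 13 genes called over the whole table became 0 with edgeR (631 at an unadjusted p under 0.05), 7 with peaks of 1 gene only, 115 with the replicate block and 0 to 3 when 1 library was left out. For peaks the count of 0 (864 at an unadjusted p under 0.05) became 27 with edgeR, 25 with the replicate block and 0 to 5 when 1 library was left out. A fit that leaves 1 library in a group assumes that it varies like the others. The labels do not say that equal numbers mark a shared batch or pair of mice. Deviations from the group means correlated between equal numbers with r of 0.37 over genes and 0.23 over peaks, with 2 pairs. In the fit with the replicate block the Tigit log2 fold change was 0.31 with adjusted p = 0.00660 (DESeq2), that of Tox2 was 0.43 with adjusted p = 0.0209 and that of Nr4a3 was -0.26 with adjusted p = 0.000668, and independent filtering left 83.4% of genes, 6 of the 8 members among them, with no adjusted p. Of the 29 member peaks none was called with the block, but 18 had no adjusted p there.

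Leaving out 1 library gave log2 fold changes of 0.19 to 0.45 for Tigit, 0.11 to 0.25 for Pdcd1, 0.07 to 0.35 for Cd200, -0.48 to -0.05 for Cd226 and -0.53 to -0.16 for Cd160. The sign turned within -0.042 to 0.21 for Lag3, -0.39 to 1.41 for Cd96, -0.26 to 0.11 for Btla and -0.41 to 0.077 for Ptpn11. With no turn of sign, Tox2 was 0.24 to 0.65, Sh2d1a 0.09 to 0.47, Lgals9 0.10 to 0.38 and Nectin2 -1.50 to -0.57. The difference in the Lag3 promoter share was -0.79 to 8.58 points when 1 library was left out and -0.61 points with promoters within 1 kb. With promoter peaks only, Cd101 was 0.20 and Tigit 0.20, Pdcd1 0.11 and Cd226 -0.06, while Cd200 had no value. The cause of these shifts was not tested. Scaling by total counts or TMM, the count filter and 1 kb upstream turned no member's sign. Depth limits Cd96, Cd160, Cd200 and Cd226 most, which rest on the fewest counts.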
